A study of Rattus norvegicus with 8 samples.

Results

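The untreated extraocular muscles of 4 adult rats, measured on 1 array each, are described here gene by gene as a baseline of what this tissue expresses. The 4 arrays were taken by their titles, which name them as controls, out of 8 arrays in the series. The other 4 arrays came from rats made hyperthyroid with the thyroid hormone T3 (25 µg per 100 g of body weight, injected on alternate days for 6 weeks, with tissue collected 24 h after the last dose); they were not compared with the controls here. Rats were adult Sprague-Dawley animals with a starting weight of 200 ± 40 g. They were assigned to the groups at random, and had free access to standard chow and tap water. The controls were untreated, and whether they received vehicle injections is not stated in the labels. Muscles were dissected fresh and frozen. The labels mention no separation of individual eye muscles, of their layers or of their cell types, so every value is taken as a bulk value of the dissected tissue. The sex of the animals and the hour of collection are not stated in the labels. The arrays are called control 7, 8, 9 and 11 after the numbers in their titles, and sets of 4 signals are always given in that order.

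Extraocular muscles rotate the eyeball. They are set apart from limb muscles by very fast contraction, high resistance to fatigue, a dense blood and nerve supply and an unusual mixture of fibres, some of them innervated at many points along their length. Besides the fast and slow myosin heavy chains of limb muscle, they keep embryonic and neonatal myosins into adult life and express a heavy chain of their own, encoded by Myh13. They develop from head mesoderm and not from the somites that form trunk and limb muscle.

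Total RNA was hybridised to Affymetrix Rat Genome 230 2.0 arrays, on which each transcript is read by 1 or more probe sets. The deposited value of a probe set is an intensity in arbitrary units, called its signal here. Signals were turned into log2 values after raising those under 1 to 1, and each of 14217 named genes was read from the probe set with the highest mean over these 4 arrays. A gene's rank or percentile is its place by mean log2 signal among these genes. Probe sets differ in how well they hybridise and were not adjusted for transcript length, so an order of genes is an order of signals and not of transcript numbers. The arrays had median signals of 47.8 to 54.8 and trimmed means of 150.06 each. The deposited values were used as scaled by the authors, so equal trimmed means are no evidence that the arrays are alike. The arrays correlated with each other at 0.935 to 0.961 over the 8530 genes of the upper 60% by mean signal, which all share the same probe sets and tissue. That share begins at a signal of 59.9. Array control probe sets compare signal from the 3′ end of a transcript with its 5′ end. On controls 7, 8, 9 and 11 this ratio was 1.97, 1.68, 1.77 and 1.67 for GAPDH. For beta-actin it was 3.72, 3.63, 3.61 and 2.97. Both ratios were highest on control 7 and lowest on control 11, and their part in differences between arrays was not tested. As a guide to unspecific signal, 24 of 25 genes typical of liver, pancreas or testis lay under 59.9. The exception was Cpa1, a pancreatic carboxypeptidase, with a signal of 133, and 5953 genes were brighter than it. Since there is 1 untreated group, no test between groups applies, and errors are standard deviations (SD) over 4 rats. The number of arrays, 4, limits their precision.

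The brightest transcripts encoded the contractile machinery of fast fibres and the enzymes that supply it with ATP. The mitochondrially encoded cytochrome c oxidase subunits COX1 and COX2 ranked 1 and 2, and COX1 had signals of 66254, 50719, 45637 and 50502. Behind them came Myl1, an essential myosin light chain of fast fibres, at 43775, 37584, 35062 and 35582, followed by the fast troponin C gene Tnnc2 at 39664, 33607, 31195 and 28798. The next places were held by Myl11 (fast regulatory light chain), Acta1 (skeletal actin), Aldoa (aldolase of glycolysis), Atp2a1 (the fast calcium pump of the sarcoplasmic reticulum), Tnni2 and Tnnt3 (fast troponins I and T). Muscle creatine kinase, Ckm, had signals of 28035, 25464, 24553 and 24700.2, and its mitochondrial partner Ckmt2 had 26556, 26196, 24244 and 21301. Slc25a4, the ADP/ATP carrier of the inner mitochondrial membrane, stood beside them at 27558, 25618, 24347 and 21510.1. The other named places among the top 25 belonged to the ribosomal genes Rps29, Rpl26 and Rpl37a, tropomyosin Tpm1, Myh4, the cytochrome oxidase subunits Cox6a2 and Cox7b, myoglobin Mb, the muscle enolase Eno3, the titin cap Tcap and the ATP synthase subunits Atp5f1e and Atp5f1c. These 25 genes held 10.6% to 12.8% of the summed gene signal of an array, and the 100 brightest held 24.1% to 27.1%. Among the 100 brightest probe sets of the array, 69 carried 1 gene symbol, 22 carried several and 9 none, so part of the brightest signal is not named here.

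Upstream sequences are shown for the 2 genes among the brightest 25 whose start-proximal region held each of 4 short motifs known from muscle promoters, because both encode major parts of the sarcomere. The table of RefSeq promoters (build GRCr8) had an entry for 20 of the 25 genes, and 2 of the 20, Acta1 and Myh4, held all 4 motifs in the 250 bases before the start. The share of all promoters with all 4 motifs is not given here, so nothing is read from the 2 of 20. The motifs were searched on both strands. The first was TATAAA, which positions the start of transcription, and the next was the E box CANNTG, bound by MyoD-type factors. The others were CATTCC, the MCAT element bound by TEAD factors, and the CArG box bound by serum response factor. Capitals mark every match, no matches overlap, and bases run 5′ to 3′ on the strand of the gene.
Acta1, chr19:68784195-68784444, minus strand: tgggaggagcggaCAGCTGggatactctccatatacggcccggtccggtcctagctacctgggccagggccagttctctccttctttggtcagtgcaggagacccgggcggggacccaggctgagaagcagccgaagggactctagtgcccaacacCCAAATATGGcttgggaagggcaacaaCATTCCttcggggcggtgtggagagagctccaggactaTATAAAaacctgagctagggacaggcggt
Myh4, chr10:52421898-52422147, plus strand: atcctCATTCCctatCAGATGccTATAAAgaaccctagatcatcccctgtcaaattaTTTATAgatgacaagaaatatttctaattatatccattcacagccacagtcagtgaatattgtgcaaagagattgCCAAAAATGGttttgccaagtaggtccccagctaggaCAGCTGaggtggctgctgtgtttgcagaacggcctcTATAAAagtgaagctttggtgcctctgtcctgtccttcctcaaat
In Acta1 the TATAAA match began 29 bases before the start, the CATTCC match 67 bases, the CArG box 94 bases and the E box 237 bases before it. In Myh4 the matches to TATAAA began 45, 193 and 227 bases before the start, those to CANNTG 81 and 235 bases, the CArG box 118 bases and CATTCC 245 bases before it. A match to the letters is a description and does not show binding. Of all 33469 promoters of the table, 12.9% held TATAAA, 65.5% CANNTG, 12.1% CATTCC and 1.50% a CArG box. Of the 11733 promoters of measured genes, 8.06% held TATAAA, 58.8% CANNTG, 10.4% CATTCC and 1.24% a CArG box. Of the 85 promoters found for the 100 brightest genes, 17 (20.0%) held TATAAA, 51 CANNTG, 10 (11.8%) CATTCC and 4 (4.71%) a CArG box. The CANNTG share of the 85 lay under that of all promoters and just above that of measured genes. Whether these shares differ was not tested. Signals for Acta1 were 35308, 31929.7, 27691 and 27108, highest on control 7 and lowest on control 11, and those for Myh4 are given with the myosins.

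Groups of genes differed widely in signal. The 40 lists of the plot of gene lists were ranked by the median percentile of their measured members, against 50 for a list placed like all genes. Fast fibre proteins stood highest (99.9), then the respiratory chain (99.3), cytosolic ribosome (99.1) and shared sarcomere proteins (99.05). Glycolysis (98.6), the citric acid cycle (98.4), slow fibre proteins (97.5) and fatty acid oxidation (95.8) came next. Matrix, vessel and nerve lists lay lower, and Hox genes (7.6) lay below the list of foreign organs (13.5). In bulk tissue, fewer cells of a type and less RNA per cell cannot be told apart.

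**Figure D1:**
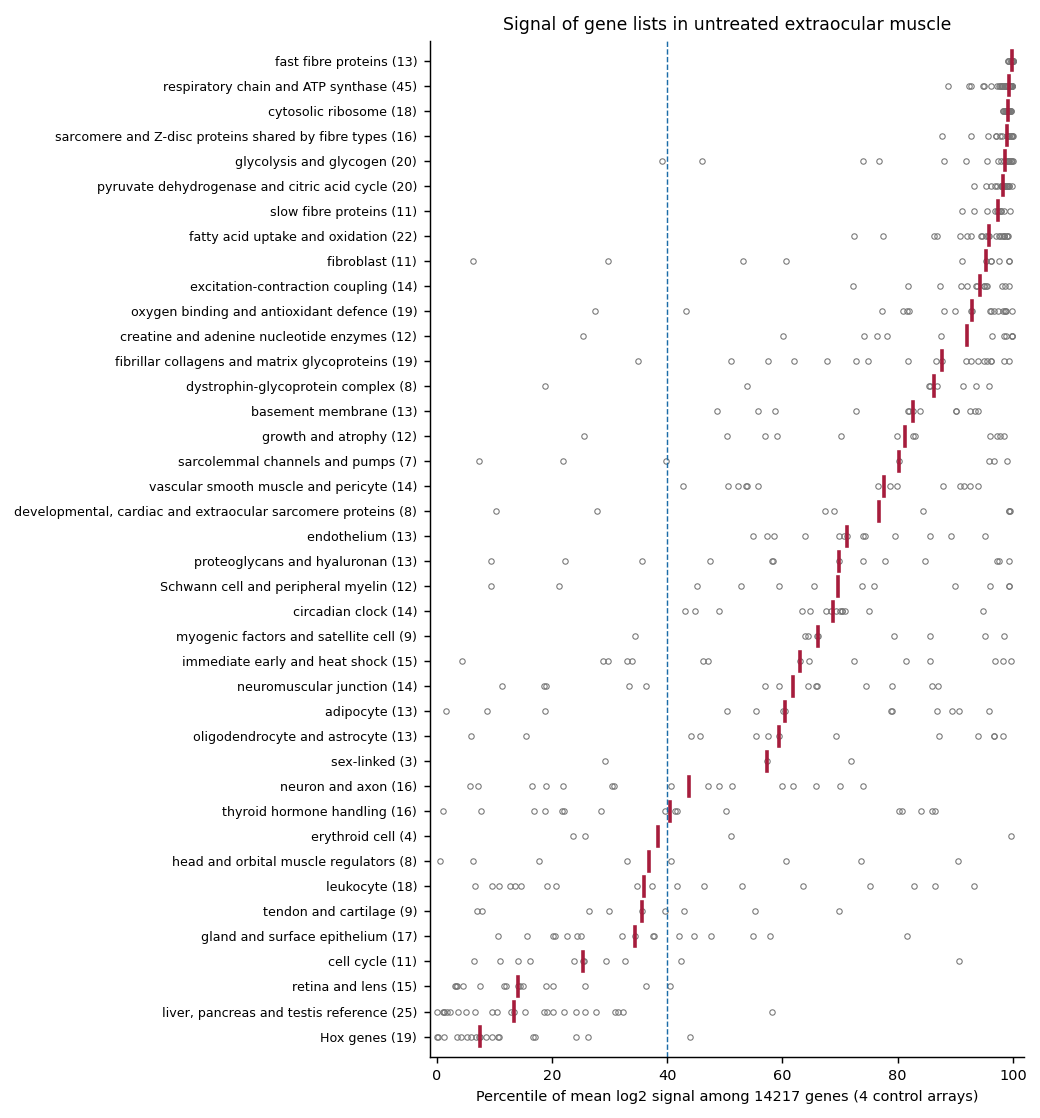
Percentile of mean log2 signal (horizontal axis) of every measured member (grey circles) of 40 gene lists, with the list median as a red bar, the number of measured members in brackets and the lower edge of the upper 60% of genes as a dashed line. Fast fibre, mitochondrial, ribosomal and sarcomeric lists crowd at the right edge, while Hox, retina and lens, and foreign organ lists lie mostly left of the dashed line.

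Fast isoforms were brighter than their slow counterparts throughout the thin filament, light chains and calcium pumps. All 13 fast fibre proteins were among the 1000 brightest genes and 11 were among the top 100, against 10 and 1 of 11 slow fibre proteins. Troponin C showed this for Tnnc2 (28798 to 39664) and slow Tnnc1 (1719 to 3098). Troponin I read 25506 to 31597 for fast Tnni2 and 2293 to 3562 for slow Tnni1. The fast calcium pump Atp2a1 (24109.8 to 31944) and the slow and cardiac pump Atp2a2 (3859 to 4268) did not overlap. Pvalb, the calcium buffer parvalbumin of fast fibres, had signals of 16713, 12748, 16562 and 11515, and Actn3, the alpha-actinin of fast Z-discs, had 16046, 13077, 16113 and 9259.9. Both were lower on controls 8 and 11 than on 7 and 9, as were Myh4, Myh1 and Mybpc2. Among slow members, Mybpc1, slow myosin binding protein C, was the brightest: it had signals of 9142, 11478, 9756 and 9138 and ranked 66.

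All 8 measured sarcomeric myosin heavy chains read above 59.9 on every array, and 7 of them above 1000. The signal of Myh4, the heavy chain of the fastest limb fibres (type IIB), was 24436, 18987, 25104 and 16681. Myh2, of fast oxidative type IIA fibres, had 10226, 17318, 11014 and 10683. Myh8, the neonatal heavy chain, followed with 12343, 8885, 9401 and 10114. Myh4 was the brightest heavy chain on each array, and Myh2 came closest to it on control 8. Myh3, the embryonic heavy chain, had signals of 9840.1, 6544, 6412 and 9270.4. Myh13, the heavy chain typical of extraocular and laryngeal muscle, had 8904, 5430.4, 8249.5 and 9043. Myh1, of type IIX fibres, lay at 9638, 5929, 8551 and 6833. Myh8 was brighter than Myh3, Myh13 and Myh1 on each of the 4 arrays, although its range over rats overlapped theirs, and those 3 changed places from array to array. Myh7, the slow and cardiac beta heavy chain, was dimmer on every array than each of the genes above, with 2728, 2308, 1795 and 2546. Myh6, the cardiac alpha heavy chain, was the dimmest, with 348, 192, 197 and 151. Heavy chain genes are close copies, and cross-hybridisation between them cannot be separated from expression, so their order is uncertain. Myh6 had another probe set at signals of 1.00 to 12.1, and Myh7 another at 56.6 to 144. Among other developmental and cardiac proteins, the atrial and embryonic light chain Myl4 had signals of 550.2, 497, 462 and 425 and cardiac troponin T, Tnnt2, had 178, 226, 234 and 154. Cardiac troponin I (Tnni3, at most 16.9) and cardiac myosin binding protein C (Mybpc3, at most 79.1) were near the level of foreign genes.

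**Figure D2:**
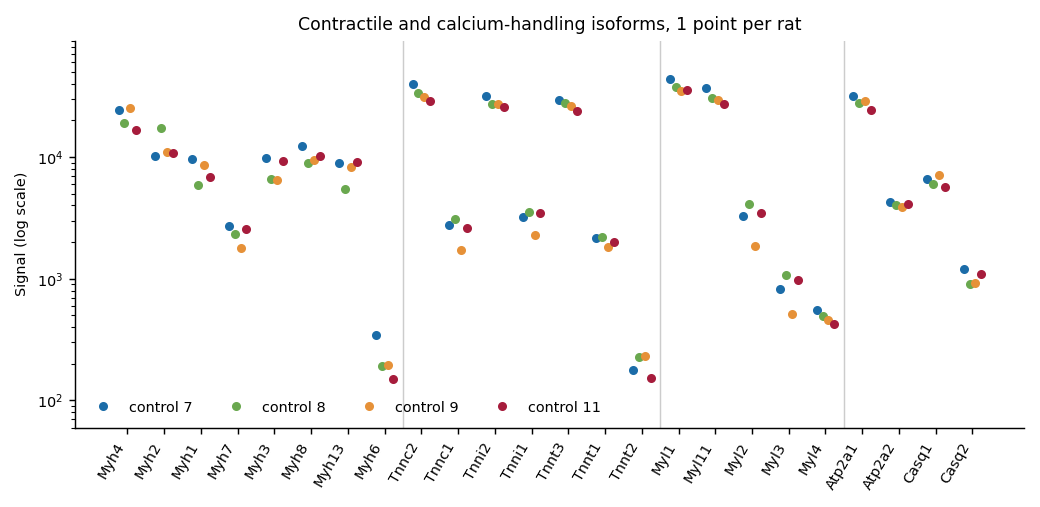
Signal on a log scale (vertical axis) of 24 contractile and calcium-handling genes, 1 point per rat and colour by array, in blocks of heavy chains, troponins, light chains and calcium handling. Fast isoforms lie above slow ones in each block, Myh3, Myh8 and Myh13 overlap with Myh1, and slow isoforms such as Tnnc1, Tnni1, Myl2 and Myl3 are lowest on control 9.

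Among structural and membrane proteins of the fibre, sarcomere genes read high and membrane genes lower. The median percentile was 86.2 for the dystrophin-glycoprotein complex, with 7 of 8 genes in the upper 60%, and 80.2 for sarcolemmal channels and pumps, with 4 of 7. Titin (Ttn, the molecular spring of the sarcomere) had signals of 16092, 14581, 16833 and 15236, and nebulin (Neb, which spans the thin filament) had 6528, 5687, 6445 and 4817. Of 16 shared sarcomere and Z-disc genes, 14 were among the 1000 brightest. The widest spread in that group was that of Myom2, an M-band protein of fast fibres, at 758, 627, 847 and 335, where control 11 was the low array. For excitation-contraction coupling, Hrc (a calcium-binding protein of the reticulum) ranked highest with 8940.2, 7148, 7965 and 6470.5. The release channel Ryr1 had 1453, 1244, 1689 and 1494 and the voltage sensor Cacna1s had 829.5, 803, 979.7 and 1022. Sarcolipin (Sln) and phospholamban (Pln), small inhibitors of the calcium pumps, ranged over 1277 to 2148 and 1105 to 1638. All 14 members of the group lay in the upper 60% of genes. In the dystrophin-glycoprotein complex, sarcoglycans Sgcb and Sgca were steady, at 1544 to 1638 and 1029 to 1132. Dystrophin itself (Dmd) read only 2.80 to 35.6. The muscle sodium channel Scn4a (1.98 to 28.0) was equally dim, and the chloride channel Clcn1 read 45.2 to 85.8. Dim signals of genes that every muscle fibre needs show that a low signal here does not establish a low level. Aqp4, the water channel of fast fibres and of astrocytes, had signals of 1945, 1706, 2272 and 2221.

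Energy metabolism was represented by both oxidative and glycolytic transcripts at high signal. All 45 measured subunits of the respiratory chain and ATP synthase were in the upper 60% of genes, 42 were among the 1000 brightest and 22 among the top 100. The muscle isoforms of cytochrome oxidase Cox6a2 (24219.7, 20077, 19139 and 16771) and Cox8b (19799, 15983, 15903 and 14706) were brighter than the general isoforms Cox6a1 (1241 to 1414) and Cox8a (2092 to 2428). The dimmest member was Cox7a1, another muscle isoform, with 698, 887, 786 and 405. All 20 genes of pyruvate dehydrogenase and the citric acid cycle were among the 1000 brightest, led by malate dehydrogenase Mdh1 (15119.8 to 17653) and mitochondrial isocitrate dehydrogenase Idh2 (7148 to 9311). Citrate synthase, Cs, had signals of 3817, 3826, 3373 and 3324, a spread of 0.11 log2 units (SD, n = 4).

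Glycolytic genes reached the same range. Behind Aldoa (32383, 30461, 30382 and 24828) and Eno3 (21388, 18217, 21324 and 15604) stood Ugp2, which makes the glucose donor for glycogen, and triose phosphate isomerase Tpi1. Pygm, muscle glycogen phosphorylase, had signals of 5114, 4623, 5672 and 3827. The lactate dehydrogenase subunits Ldha (6923 to 8742) and Ldhb (6523 to 7619), typical of glycolytic and oxidative tissue, overlapped. The glucose transporter Slc2a4 read 1377 to 1643. The hexokinases were the dim end of the list, with Hk2 at 89.0, 74.5, 25.0 and 65.4 and Hk1 at 16.2, 129, 95.6 and 199.7. All 22 genes of fatty acid uptake and oxidation lay in the upper 60% and 15 among the 1000 brightest. Among them, medium-chain acyl-CoA dehydrogenase Acadm (6066 to 7258), the trifunctional protein subunit Hadhb (5098 to 6343) and the heart-type fatty acid binding protein Fabp3 (4361 to 5798) led. Cpt1b, the gate of long-chain fatty acids into muscle mitochondria, had signals of 676, 788, 774 and 945. For oxygen storage, myoglobin (Mb) had 19563, 19984, 17003 and 19772, with an SD of 0.11 log2 units. Antioxidant enzymes Txn1, Gpx1 and Sod1 each ranged within 3952 to 4940. Ampd1, muscle AMP deaminase, had 4505, 4319, 4797 and 2863, and control 11 was the low array. Brain-type creatine kinase Ckb, at 211 to 317, was far dimmer than Ckm.

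Transcripts of the neuromuscular junction and of nerve were measured at moderate to low signal. In the acetylcholine receptor, the pentamer that receives the motor signal, the adult subunits read above 59.9 in each rat: Chrna1 read 628, 478, 524 and 506 and Chrnb1 652, 617, 498 and 554. Chrnd read 246, 291, 237 and 318 and Chrne, the subunit of adult junctions, 179, 153, 187 and 175. Chrng, the fetal subunit that extraocular muscle is known to keep, had 127, 8.77, 5.75 and 10.7, so only control 7 was above 59.9. The agrin receptor Lrp4 (312 to 404) and the scaffold Rapsn (106 to 139) read above 59.9 on every array, whereas the receptor kinase Musk read 2.26 to 38.4. Of 14 junction genes, 9 were in the upper 60%. Axonal genes were led by Snap25, a synaptic vesicle fusion protein, with 100.1, 431, 371 and 304. The neurofilament genes Nefm and Nefl read 164 to 348 and 80.4 to 219, and 9 of the 16 axon genes were in the upper 60%. Chat, which makes acetylcholine, was near the foreign level at no more than 24.0.

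Glial transcripts were brighter than those of axons. Pmp22, a myelin protein of peripheral nerve that other cells also make, had signals of 5589.9, 8182, 7675 and 11007. Mbp, a myelin protein of Schwann cells and oligodendrocytes, had 4768, 7131, 10668 and 9339. Some markers of central glia read high as well: Mobp, an oligodendrocyte myelin gene, had 1249, 1633, 2975 and 2449 and Gfap, the astrocyte filament, had 708, 855, 1494 and 1981. Cldn11, a tight junction gene of central myelin, had 2280.1, 3196, 5074 and 4724. All 5 were lowest on control 7, though not every gene of their lists was. Mog, Mag and Opalin, further oligodendrocyte genes, were dimmer, at 123 to 377, 104 to 200.2 and 47.1 to 110.0. Olig2, of the same list, read only 1.37 to 31.7. The median percentile of the 13 oligodendrocyte and astrocyte genes was 59.45. Their summed signal, which includes Aqp4 of fast fibres and astrocytes, ran from 7339 on control 7 to 13628 on control 9. Of the 13, 11 were in the upper 60%. Of those 11, 7 were lowest on control 7, 2 on control 8 and 2 on control 11. Of 10 Schwann cell genes in the upper 60%, 8 were lowest on control 7. Among all genes of the upper 60%, 28.7% were lowest on control 7. Whether the dissected tissue held central nervous tissue was not tested. Of the 15 retina and lens genes, 1 (Rom1, 45.1 to 74.1) was in the upper 60%.

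Vascular, matrix and connective tissue genes formed the middle of the order. All 13 endothelial genes were in the upper 60%, with Ptprb, an endothelial phosphatase, brightest at 1349.9, 1310.3, 1505 and 1386 and the adhesion molecule Pecam1 at 154 to 196. All 14 smooth muscle and pericyte genes were in the upper 60% too. Smooth muscle myosin Myh11 had 632, 1318, 860.5 and 1150.4 and the actin-binding protein Tagln had 497, 1115, 802 and 907, both lowest on control 7 and highest on control 8. Pericyte genes Abcc9 (1044 to 1313) and Rgs5 (813 to 905) spread less. Among matrix genes the small proteoglycan decorin, Dcn, was bright and even, at 7479, 9113, 7129.6 and 7827. Col3a1, of fibrillar collagen III, had 5667, 9361, 5654 and 14196, and Col1a1, of collagen I, had 1259, 2340.2, 1084 and 2962. Both were higher on controls 8 and 11 than on 7 and 9. Basement membrane genes were led by nidogen, Nid1, at 1041, 1199, 764 and 1795, and the muscle laminin chain Lama2 read 652 to 947. Tendon and cartilage genes were dim, with Tnmd (tenomodulin, of tendon) at 143, 60.2, 23.0 and 114 and 3 of 9 genes in the upper 60%.

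Genes of other cell types were mostly read at lower signal. The adipocyte gene Fabp4, also made by capillary endothelium, had 1709.8, 1766, 1613 and 1466, and adiponectin, Adipoq, had 531, 476, 315 and 184. Lyz2 and the class II chaperone Cd74, of macrophages and other leukocytes, read 646 to 1306 and 462 to 705. T cell gene Cd3e and B cell gene Ms4a1 were at or under 31.3 on each array. Haemoglobin beta, Hbb, of red cells, was among the top 100 genes with 8645, 11414, 11082 and 13568. Epithelial genes were mostly under 59.9, with Prom1 brightest at 361 to 460.1 and 6 of 17 genes in the upper 60%.

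Regulators of muscle identity differed in signal. Mef2c had signals of 4418, 3514, 3858 and 3470.0 and Myf6, the myogenic factor of mature fibres, had 1721, 1397, 1180.3 and 1289.8. Myod1, of fast fibres and activated satellite cells, read 409 to 581, and Myog 101 to 245. The list of head and orbital muscle regulators had a median percentile of 36.8, with 4 of 8 measured genes in the upper 60%. Its members Eya1 (680.0 to 933) and Six4 (186 to 324) were clearly above 59.9, whereas Tcf21 and Pitx3 were near the foreign level. A place on this list does not show that a gene is particular to head or eye muscle. Of 19 Hox genes, which pattern the trunk and limbs, 18 lay below the upper 60%, and the other, Hoxd8, read 60.6, 125, 52.1 and 68.6. Receptors for thyroid hormone were measured as Thrb, at 707, 457, 563 and 445, and Thra, at 92.1, 107, 93.7 and 92.4. The thyroid hormone binding protein Crym had 603, 468, 343 and 494, and the activating deiodinase Dio2 read 1.59 to 6.01. The retinoid receptor Rxrg, which pairs with them, had 418, 447, 380.2 and 267. Growth factor genes Igf1 and Igfbp5 were bright, at 1857 to 3113 and 3289.9 to 5042. The atrophy ligase Trim63 read 363 to 500.1 and its partner Fbxo32 87.3, 3.09, 32.6 and 53.1. Cryab, a small heat shock protein of the Z-disc, was among the top 100, with 12626, 13814, 13343 and 8491. Cell cycle genes were dim apart from Pcna (706 to 855): 2 of 11 were in the upper 60%, and Mki67 did not pass 53.7. The 18 genes of the cytosolic ribosome list lay between 3123 and 13468 on every array, and Rps29, Rpl26 and Rpl37a, which are not on that list, read higher.

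Which probe set stands for a gene mattered for its place. Of 4525 genes with more than 1 probe set, the median difference between the brightest and the dimmest was 2.29 log2 units, and 1616 (35.7%) differed by over 3. For Tpm1 the difference was 11.40 log2 units, for Atp2a2 8.35, for Tnnt3 7.03, for Chrnb1 7.02 and for Thrb 6.60. The dimmer probe set of Chrnb1, at 2.07 to 7.47, lay far below the level of 59.9.

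Variation among the 4 rats was small for bright genes. The median SD of log2 signal was 0.24 over the 8530 genes of the upper 60%, 0.14 over the 1000 brightest and 1.56 over the dimmest of 5 equal bins of all genes. Zwint was the steadiest bright gene, at 1688, 1704, 1677 and 1682, and the ribosomal gene Rpl4 was next, at 5833, 5927, 5848 and 5821. Also among the 10 steadiest were Atp6v1e1 (a subunit of the proton pump of lysosomes), Mrfap1, Ubxn4, Bin1 (which shapes the T-tubule membrane), Nedd8 (a ubiquitin-like modifier), Pink1 (a kinase of mitochondrial quality control), Hnrnpu and Zfp106. Their highest and lowest arrays differed at most 1.03-fold. The largest SD in the upper 60% was that of Aadac, a lipid hydrolase, at 4.23. Of the 15 genes with the largest SD, 12 were over 1 log2 unit above the other arrays on control 11: Aadac, Mogat1, Aox4, Acsm1, Ctse, LOC100360933, Rbp7, Elovl3, Epcam, Pla2r1, Tmem86a and Sphk1. The share in the upper 60% was 0.891%, but a gene chosen for its SD has an array that stands off, so nothing is read from the 2 numbers together. On control 8, 11 of the 12 were also over 1 log2 unit below the other arrays, where the share in the upper 60% was 0.598%. The choice by SD limits this count as well. A mean under 59.9 over the 3 arrays other than control 11 was found for 7 of the 12. Bpifa1, Slc39a7 and Eif2s3y, the other members of the 15, were far lower on 1 or more arrays.

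**Figure D3:**
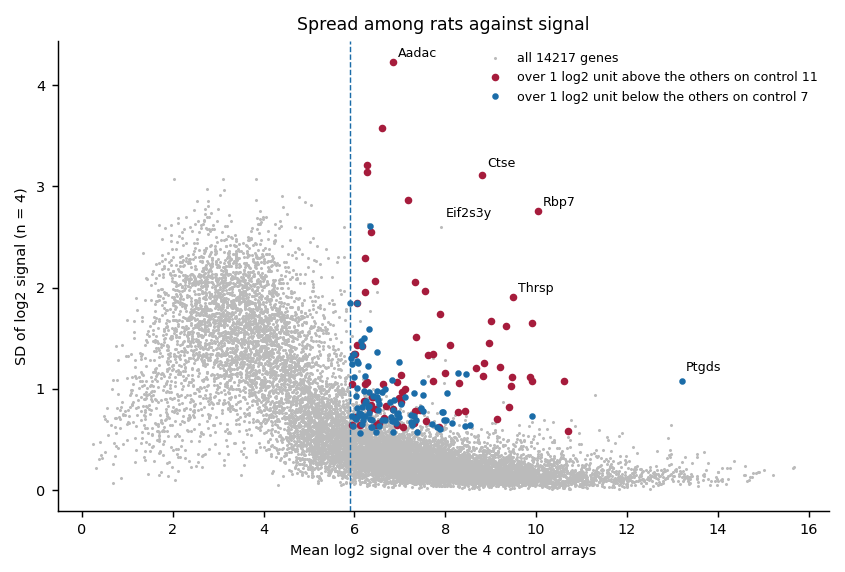
SD of log2 signal over the 4 control arrays (vertical axis) against mean log2 signal (horizontal axis) for 14217 genes, with genes set over 1 log2 unit above the other arrays on control 11 in red and over 1 log2 unit below on control 7 in blue, and the edge of the upper 60% as a dashed line. The spread narrows with signal, and Rbp7, Ctse, Thrsp and Ptgds stand out as bright genes with a large SD.

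Whole lists shifted between rats by different amounts. Deviations from each gene's mean were averaged over a list's members in the upper 60%, and the values follow for control 7, 8, 9 and 11 in log2 units. Fibrillar collagens and matrix glycoproteins stood at -0.40, 0.22, -0.32 and 0.49, with 13 of 18 members highest on control 11, against 25.2% of all 8530 genes. Basement membrane genes stood at -0.28, 0.02, -0.15 and 0.40, with 12 of 13 highest on control 11. Muscle and mitochondrial genes had the opposite low array: fast fibre proteins stood at 0.18, -0.03, 0.08 and -0.24, with 10 of 13 lowest on control 11. Respiratory chain genes stood at 0.13, 0.04, -0.01 and -0.15, with 36 of 45 lowest on control 11, where 30.0% of all 8530 genes were lowest. After quantile normalization the control 11 values were -0.12 for fast fibre proteins and -0.07 for the respiratory chain. Whether the connective tissue share of the dissected tissue moves with these muscle values was not tested. Slow fibre proteins stood at 0.15, 0.12, -0.34 and 0.07, and 9 of 11 were lowest on control 9, against 20.4% of all 8530 genes. Among them Myl2, the slow regulatory light chain, had 3278, 4138, 1863 and 3493, Myl3, the slow essential light chain, 823, 1078, 512 and 981, and Tnnc1 2763, 3098, 1719 and 2585. Nerve and central glial lists were lowest on control 7: axon genes stood at -0.68, 0.16, 0.47 and 0.05, Schwann cell genes at -0.46, 0.05, 0.09 and 0.31 and oligodendrocyte and astrocyte genes at -0.47, -0.20, 0.42 and 0.26. The fatty acid list (-0.01, 0.04, -0.04 and 0.01) and the ribosome list (-0.03, 0.03, 0.06 and -0.05) moved little. Members of a list share their arrays and are not independent of each other.

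**Figure D4:**
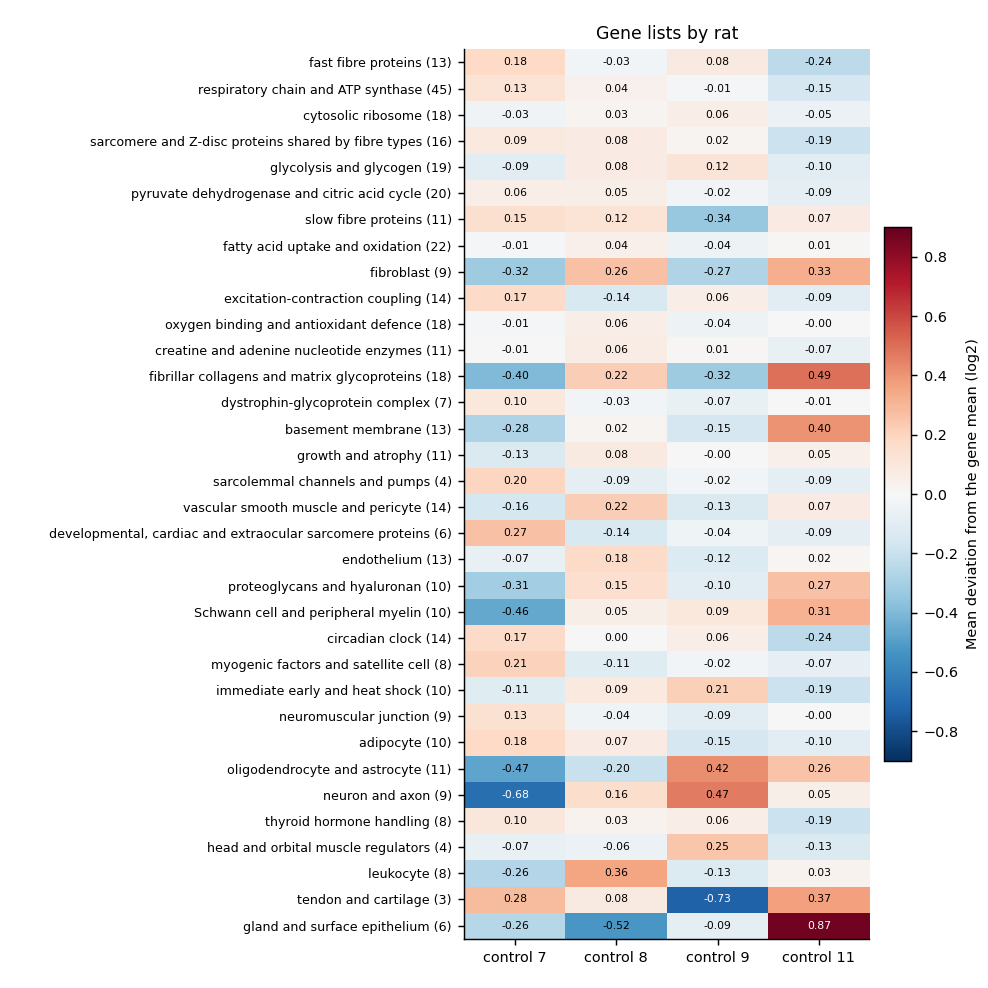
Mean deviation from the gene mean in log2 units (colour and number) of each list with at least 3 members in the upper 60% of genes, for the 4 control arrays (columns), with the number of members used in brackets. Matrix, basement membrane and epithelial lists are highest on control 11, nerve and glial lists lowest on control 7, and slow fibre proteins lowest on control 9. The epithelial list holds genes that passed the filter through control 11.

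Single genes were called apart where 1 array differed from each of the 3 others by over 1 log2 unit. Control 11 had 76 genes above the others (0.891% of 8530) and 44 below (0.516%). Control 7 had 7 above (0.0821%) and 97 below (1.14%). Control 8 had 9 above (0.106%) and 51 below (0.598%), and control 9 had 1 above (0.0117%) and 25 below (0.293%). Where another probe set of the gene could be read, it lay on the same side of the other 3 arrays for 8 of 10 genes above and 0 of 2 below on control 11, 4 of 9 below on control 7, 1 of 1 above on control 8 and 0 of 1 below on control 9. Of the 76 genes above on control 11, 20 had a mean under 59.9 over the other 3 arrays and passed the filter through control 11. With log2(signal + 32) the counts were 65 above and 9 below on control 11, 1 and 43 on control 7, 3 and 16 on control 8 and 2 and 3 on control 9. The genes named below for lipid, epithelial, glial and clock roles were picked with their values in view.

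Rbp7 and the genes after it are among those over 1 log2 unit above the others on control 11, and several have known roles in lipid metabolism. No list of such genes was counted among the 76. Rbp7, a retinol-binding protein, had signals of 748, 93.4, 1952 and 8913, and Ctse, an aspartic protease of epithelia and immune cells, had 327, 32.2, 646 and 6099. Thrsp, a regulator of fat synthesis, had 337, 256, 643 and 4764. In each of the 3, control 11 was highest, control 9 next and control 8 lowest. Fasn, fatty acid synthase, had 463, 405, 658 and 1955 and Elovl1, which lengthens fatty acids, 571, 364, 838 and 4932. Fabp5, an epidermal fatty acid binding protein, had 377, 229, 644 and 3055. Aadac had 155, 1.96, 282 and 2048, Mogat1, a monoacylglycerol acyltransferase, 59.5, 4.42, 212 and 1650.1, and Aox4, an aldehyde oxidase, 52.4, 5.93, 88.4 and 1323. The order control 11, 9, 7, 8 held for 38 of the 76 genes, against 332 of 2150 upper 60% genes (15.4%) that were highest on control 11. Because the 76 were chosen for a gap on these same arrays, nothing is read from the 2 shares. Dct, a melanin synthesis enzyme, had 150.0, 67.2, 266 and 1162. The epithelial adhesion gene Epcam had 98.3, 8.84, 89.1 and 409.9, and the summed signal of the 17 epithelial genes was 1281, 1068, 1164 and 2102. The 6 of them in the upper 60% deviated by -0.26, -0.52, -0.09 and 0.87 log2 units on average, and all 17 by 0.09, -0.98, -0.10 and 0.99. Without control 11 only 4 epithelial genes were in the upper 60%. The filter thus took in epithelial genes through the array where they are high, so nothing is read from the 0.87. With the filter at the upper 40% only 1 epithelial gene was left, at -0.13 on control 11. Adipocyte genes were divided: of 10 in the upper 60%, Fasn, Cidea, Scd and Pparg were highest on control 11 and the other 6 lowest. Adipoq was lowest there, as were Cfd, the adipocyte serine protease adipsin, at 1074, 1039, 829 and 409, and Plin1, the coat of fat droplets, at 161, 201, 177 and 77.5. The part of epithelial or glandular tissue in the values of control 11 was not tested.

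**Figure D5:**
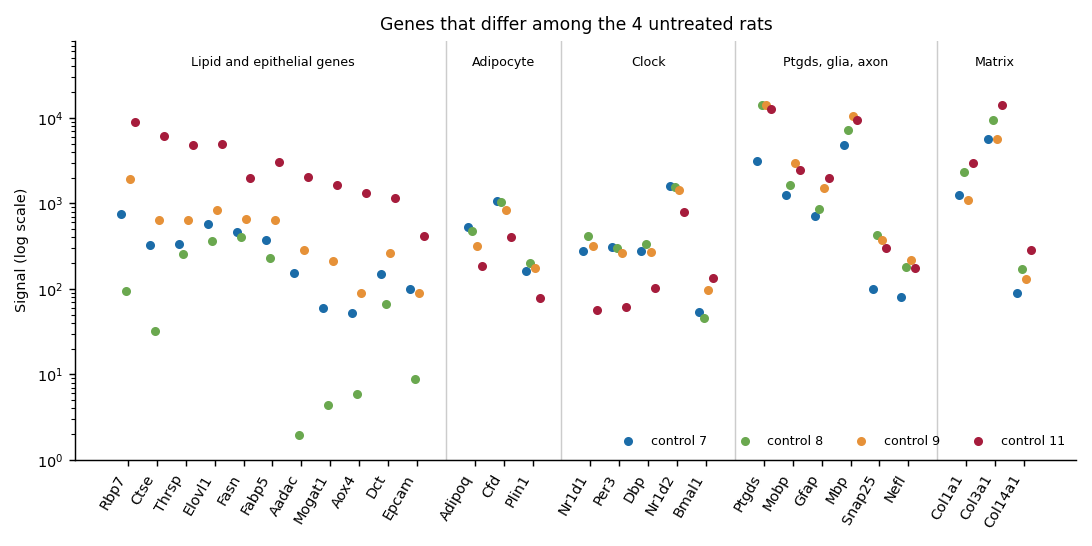
Signal on a log scale (vertical axis) of 28 genes chosen for their differences among the 4 untreated rats, 1 point per rat and colour by array, in 5 blocks. The lipid and epithelial genes drawn are highest on control 11. Nr1d1, Per3, Dbp and Nr1d2 are lowest there and Bmal1 highest, and Ptgds, Snap25 and Nefl are lowest on control 7.

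Clock genes were divided on control 11: of 14, 6 were lowest there and 5 highest, against 30.0% and 25.2% of all 8530 genes. Nr1d1, a repressor within the circadian oscillator, had 279.6, 417, 314 and 56.1, and Per3, a period gene, had 309, 302, 260.1 and 61.2. Dbp, a clock output factor, had 279, 331, 268 and 104. All 3 were over 1 log2 unit below the other arrays, and Nr1d2 (1587, 1574, 1438 and 794) was lowest there too. Bmal1, whose transcript peaks opposite to these in a daily cycle, was highest on control 11, with 53.2, 45.6, 97.8 and 134. Clock (242, 236, 297 and 349) and Per1 were highest there too. Control 11 also had the lowest Egr1, an immediate early gene, at 197, 226, 279 and 74.6. The sex-linked genes, each read from its brightest probe set, did not give a single picture for this array. Y-linked Eif2s3y had 533, 636, 611 and 16.2. Xist, the X-inactivation transcript of females, had 3.03, 44.5, 25.7 and 351, whereas Y-linked Uty had 141, 85.8, 114 and 201. The dimmer probe set of Uty went the other way, lowest on control 11, with 34.1, 22.1, 20.8 and 15.2, all under 59.9. The dimmest probe set of Xist had 3.11, 34.6, 1.72 and 218. The sex of the animals and the hour of collection are not in the labels, and their part in these values was not tested. Bpifa1, a secreted protein of upper airway and gland epithelia, was low on both control 8 and control 11, with 349, 38.9, 343 and 8.22. Obp1f, an odorant-binding protein of nasal glands, had the same pattern, with 314, 22.6, 264 and 34.7.

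Several genes of nerve coverings, glia and axons were low on control 7. Ptgds, prostaglandin D2 synthase, abundant in the meninges and in glia, had 3098, 14208, 14057 and 12857 and was the brightest gene that set any array apart. Npy, a neuropeptide of sympathetic nerves, had 109.5, 435, 502 and 642, and Vip, a neuropeptide of parasympathetic nerves, had 21.9, 145, 159 and 133. Snap25 and Mal, a myelin proteolipid with 71.5, 206, 227 and 324, were low there too. The widest gap on control 7 was that of Slc39a7, a zinc transporter, with 5.46, 200.4, 166 and 242. Pf4, a platelet chemokine, read 96.9, 376, 404 and 619.6. On control 8 the widest gaps lay at the low end, in genes that were high on control 11: Aadac lay 6.30 log2 units below the lowest of the other arrays, Acsm1 5.38 and Mogat1 3.75. Of the 76 genes above on control 11, 48 were lowest on control 8, against 615 of 2150 upper 60% genes (28.6%) highest on control 11. Of the 76, 15 were over 1 log2 unit below there, against 0.598% of all 8530 genes. The 76 were chosen for a gap on these same arrays, so nothing is read from these shares. Itga1, a collagen-binding integrin, was low on control 8 alone, with 467, 68.2, 313 and 412. The genes set above the others on control 8 included Hsd11b1, which activates glucocorticoids, with 850.4, 1917, 704 and 742. On control 9 the gene above the others was S100a9, a neutrophil calcium-binding protein, with 107, 107, 446 and 54.1, and Pde9a, a cyclic GMP phosphodiesterase, was lowest there with 124, 90.6, 14.2 and 82.4.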

How the data were processed

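The authors scanned Affymetrix Rat Genome 230 2.0 arrays, 1 per rat, and deposited 1 intensity per probe set; the submitters' processing notes name GCOS, with no version, and the signal algorithm is not stated there. Of 31099 probe sets, 57 array control probe sets were left out. A platform annotation gave 1 gene symbol to 20826 of the rest, several to 436 and none to 9780. Only probe sets with 1 symbol named a gene. Deposited intensities were used as scaled by the authors, with 985 of 124168 values (0.793%) under 1 set to 1 before log2. Each of 14217 genes was read from its probe set of highest mean over the control arrays. Promoter sequences are RefSeq's, of build GRCr8.

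The rank, percentile, SD and gap to the nearest other array were computed with Python 3.11.15, numpy 2.4.6, pandas 2.3.3 and matplotlib 3.10.9. The procedure was tested on simulated data in which every gene had the same SD. In the arrays the SD grew as signal fell, so the simulation gives no error rate for the gaps. No test between groups was made. Spread and gaps were read in the upper 60% of genes by mean signal. Alternatives were quantile normalization, centring on the median, log2(signal + 32), averaging a gene's probe sets, counting probe sets with several symbols, other filters on dim genes and leaving out each array.

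The genes and the 40 lists were chosen with earlier results of these data known. Named genes were the 25 brightest, the 3 brightest and the dimmest of each list, all myosin heavy chains, acetylcholine receptor subunits and sex-linked genes of the lists, the 15 genes of largest and the 10 bright genes of smallest SD, the 3 widest gaps per array and direction, and probe set pairs over 3 log2 units apart, of which examples are printed. Other named genes were chosen after their values were seen.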

Additional observations from a re-analysis of the deposited data

Results flagged for a closer look

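A sample was singled out where its gap to the nearest of the other 3, as a share of the range of all 4, exceeded Dixon's 95% limit for 4 samples. A small difference can pass this limit where the other 3 values lie close together. Of 207 genes named in the text, 11 met this, as did 2 of 40 list averages, and chance alone gives about 1 in 20. Many of these genes were named because 1 array stood off, so their share cannot be read against that rate; over all 8530 genes of the upper 60% the limit was passed by 483 (5.66%). Control 11 lay below the others for the Y-linked gene Eif2s3y (signal 16.2), the clock genes Per3 (61.2) and Nr1d2 (794) and the glycolytic enzyme Tpi1 (10553). It was also low for the mean deviation of the sex-linked genes in the upper 60%, at -1.62 log2 units over 2 genes, Eif2s3y and Uty. With Xist, which lies below the upper 60%, the value was 0.050. The low value came from Eif2s3y, since Uty was highest on control 11 by the probe set used. The dimmer probe set of Uty was lowest there. Control 7 lay far below the others for Ptgds (3098), the neuropeptide Vip (21.9) and the zinc transporter Slc39a7 (5.46). Control 8 lay above the others for Myh2 of type IIA fibres (17318) and, by a small difference, for the thyroid hormone receptor Thra (107). It lay below them for Dmd (2.80), whose signals were dim on each array. Control 9 lay below the others for myoglobin, Mb, by a small difference (17003 against 19563 to 19984). It was also low for the mean deviation of slow fibre proteins (-0.34 log2 units over 11 genes).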

How the results depend on the processing

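No paired analysis was possible because the 4 control arrays form 1 group and the groups of the series share no replicate number. Quantile normalization, centring on the median and log2(signal + 32) moved no list's median percentile by as much as its SD over arrays. Of 48 list deviations printed by array or for sex-linked genes, 1 changed sign with quantile normalization, 3 with median centring, 4 each with log2(signal + 32), averaged probe sets, several symbols counted and no filter, 3 in the upper 40%, and 1 to 7 of 36 on leaving out an array. Those at least as large as their list's SD that turned were ribosome genes on control 11 (0.024, quantile), fatty acid genes on control 9 (0.062, centring), sex-linked genes on control 11 (0.60 with log2(signal + 32), 0.57 with several symbols, 0.050 with no filter) and epithelial genes on control 11 (-0.13 in the upper 40%, 1 gene). For lists by array the upper 40% filter was chosen after seeing the data, and gave -0.57 for clock genes on control 11. The brightest 25 genes kept 20 to 25 members. Mean log2 signals of 207 named genes moved past their SD for 46 genes when probe sets were averaged, for 25 with log2(signal + 32) and for 3 when probe sets with several symbols were counted. Low signals were the limit: a dim probe set cannot show a low level, and the SD grew as signal fell.

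Averaging a gene's probe sets moved the median percentiles to 99.8 for fast fibre proteins, 93.9 for slow fibre proteins, 64.1 for developmental and cardiac sarcomere proteins, 98.1 for shared sarcomere proteins, 72.8 for channels and pumps and 77.2 for the dystrophin complex. They became 97.6 for glycolysis, 96.2 for fatty acid oxidation, 89.9 for creatine and adenine nucleotide enzymes, 94.9 for antioxidant defence, 58.6 for the neuromuscular junction, 73.1 for endothelium, 64.9 for vascular smooth muscle and 77.6 for proteoglycans. They became 93.9 for fibroblast, 29.8 for leukocyte, 44.1 for erythroid, 16.0 for retina and lens, 74.5 for myogenic, 64.0 for growth and atrophy, 55.2 for immediate early, 57.6 for clock, 99.3 for ribosome and 45.2 for sex-linked genes. Counting probe sets with several symbols gave 96.5 for slow fibre, 91.1 for developmental and cardiac, 98.5 for shared sarcomere, 93.1 for excitation-contraction coupling, 97.9 for glycolysis, 97.6 for the citric acid cycle, 99.2 for the respiratory chain, 90.9 for creatine enzymes, 70.0 for endothelium, 74.8 for erythroid and 98.7 for ribosome genes. The cause was not tested.

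With no filter on dim genes the median SD was 0.38, 420 genes lay above the others on control 11 (76 with the filter), 1454 lay above on any array (93) and 2586 below (217). In the upper 40% of genes these counts were 37, 40 and 51. Genes below the others on any array numbered 71 with log2(signal + 32) and 482 with averaged probe sets. Averaged probe sets gave 25 above and 194 below on control 7, 14 and 119 on control 8, 3 and 78 on control 9 and 87 and 91 on control 11, and centring gave 2 above on control 7, 5 on control 8 and 3 on control 9. Leaving out an array, each in turn, gave 17 to 25 above on control 7, 19 to 26 on control 8, 5 to 22 on control 9 and 40 to 41 below on control 9, each raised whichever array was left out. It gave 69 to 151 genes above the others on any array, the lowest without control 11 and the highest without control 8, and 140 without control 9. The median percentile then ran from 59.3 to 65.4 for adipocyte, 99.1 to 99.2 for ribosome, 71.2 to 72.3 for endothelium, 37.9 to 42.5 for erythroid, 12.7 to 17.4 for foreign organ, 65.2 to 69.4 for myogenic and 11.2 to 15.8 for retina and lens genes.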

Other observations

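Several genes outside the lists were among the brightest and are given here as values, chosen after their ranks were seen. Hspb6, a small heat shock protein of muscle, ranked 41 with signals of 14692, 13500.2, 11729 and 12266. Ddit4l, a stress-induced inhibitor of growth signalling, ranked 81 with 9861, 8104, 9544 and 7543. Fhl1, a LIM protein of the sarcomere, had 7677, 9919, 6514 and 8479, and control 8 was the high array for it. Coq8a, a kinase-like protein of coenzyme Q synthesis, had 9744, 9482, 7454 and 7779.9. Selenop, a secreted selenium carrier, had 6086, 6292, 5282 and 5703, and Tmsb4x, which binds free actin, had 8614, 9225, 9596 and 9313 with an SD of 0.07 log2 units (n = 4).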
